A study of Homo sapiens with 2 samples.

Results

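Transcripts of 8 glycolytic enzymes other than GAPDH were examined for A-to-G mismatches: ENO1, PKM, ALDOA, TPI1, PGK1, LDHA, LDHB and PGAM1. Members were all deposited A positions of the transcribed strand that lie between the hg19 boundaries given for each gene. There were 3135 such positions in the library without ABA, of 4070749 nuclear positions, and 3221 of 3510744 in the library with ABA, and 3102 were listed in both. Nuclear means chromosomes 1 to 22 and X. The cells were HEK-293T, an established line of human embryonic kidney origin, and carried a CIRTS-hADAR biosensor in both libraries, so cells without it are not analysed here. The conditions were no ABA and ABA, a small molecule, each with 1 library from 1 biological replicate. Dose and exposure time of ABA are not given in the sources used here. CIRTS is an engineered RNA-targeting protein system, here joined to a human ADAR. The files count reads with each base at listed A positions of each strand, none below 6 reads. An A-to-G rate is the percentage of G among the A and G reads of the positions named.

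Glycolysis splits a hexose into trioses and harvests ATP and NADH from their conversion to pyruvate. Its enzymes are abundant housekeeping proteins in cultured cells. ADAR enzymes turn adenosine into inosine, a base that is read as G, and are known to prefer some neighbouring bases. ALDOA is the aldolase that cleaves the hexose bisphosphate, and TPI1 interconverts the triose phosphates that result. PGK1 then makes ATP, PGAM1 moves the remaining phosphate, ENO1 makes phosphoenolpyruvate, and PKM, a pyruvate kinase, makes ATP and pyruvate. LDHA and LDHB are the subunits of lactate dehydrogenase, which interconverts pyruvate and lactate.

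On hg19, ALDOA lies on the plus strand of chromosome 16 from 30064411 to 30081778, TPI1 on the plus strand of chromosome 12 from 6976584 to 6980110, and PGK1 on the plus strand of chromosome X from 77359666 to 77382324. PGAM1 lies on the plus strand of chromosome 10 from 99185918 to 99193198, and LDHA on the plus strand of chromosome 11 from 18415936 to 18429765. On minus strands lie ENO1, on chromosome 1 from 8921059 to 8939151, PKM, on chromosome 15 from 72491370 to 72523727, and LDHB, on chromosome 12 from 21788275 to 21810728. A gene annotation of this build was not used here, so positions are not assigned to exons, introns or untranslated regions. RefSeq names 39 pseudogenes of these genes, from 2 for ALDOA and for PGK1 to 13 for PGAM1. How reads shared with such copies were placed is not given in the labels or file headers, so the values of each gene may include or lack them.

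The genes were read more deeply than most nuclear positions. Their median depth was 39 reads without ABA and 44 with ABA, against 10 in both libraries over all nuclear positions. PGAM1 was close to the latter, with 11 and 13.5 at its positions listed in both. At least 20 reads were present at 78.9% and 79.2% of their positions, against 12.5% and 13.7% of nuclear positions. No position of the 8 genes reached a G share of 35% in either library, so none looked like an inherited variant. The 1162 such nuclear positions were left out of the pooled A-to-G rates and of the blocks. They were kept in the test of single positions and in the nuclear total used for read levels. Intervals in parentheses are at 95% and cover the counting error of these 2 libraries alone. Where positions are pooled they take base reads as independent, though 1 read can cover several A positions, so they may be too narrow. With 1 library per condition, differences between conditions have no replicate check.

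In 8 of 8 genes the A-to-G rate was higher with ABA. Summed over the 8 genes, 99 of 130770 reads had G in the no-ABA library (0.0757%, 0.0615 to 0.0922), and 276 of 149776 in the ABA library (0.184%, 0.163 to 0.207), giving a ratio of 2.43 (1.93 to 3.09). The interval of the ratio lay above 1 in 5 genes, PKM, PGK1, LDHB, ALDOA and ENO1, and held 1 in TPI1, PGAM1 and LDHA. That of PGK1 held 1 too at positions read 20 or more times in each library (0.910 to 12.1), without its position of most G reads (0.872 to 11.9) and with reads thinned to the lower depth (0.909 to 12.8). As background, 72% of 2706 other nuclear segments that had 3000 or more reads in each library had a higher rate with ABA, and the interval lay above 1 in 8.17% of them. A segment here joins listed positions of 1 strand at most 1000 nt apart. The median ratio was 2.44 over the 8 genes, against 1.83 over the 2640 segments that had a G read in either library, of which the 366 with G reads in the ABA library alone were ranked highest. Pooled over all segments the ratio was 1.89. These segments held a median of 5416 reads without ABA, fewer than any of the 8 genes but PGAM1.

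Of the enzymes that act on hexose and triose phosphates, ALDOA had the highest rate of the 8 genes with ABA. Of its reads, 16 of 15415 had G without ABA (0.104%, 0.0593 to 0.169) and 57 of 18666 with ABA (0.305%, 0.231 to 0.395), giving a ratio of 2.94 (1.67 to 5.49). The library with ABA was the higher, and the intervals of both did not overlap. TPI1 had 9 of 9686 reads (0.0929%, 0.0425 to 0.176) and 21 of 11697 (0.180%, 0.111 to 0.274), giving a ratio of 1.93 (0.848 to 4.79). Its intervals overlapped.

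Among the enzymes of the later, ATP-yielding steps, PKM had the largest ratio of the 8 genes. It had 15 of 20569 reads without ABA (0.0729%, 0.0408 to 0.120) and 69 of 26265 with ABA (0.263%, 0.204 to 0.332), giving a ratio of 3.60 (2.04 to 6.78). The intervals of its rates did not overlap. ENO1, the most read of the genes, had 27 of 28231 reads (0.0956%, 0.0630 to 0.139) and 52 of 28504 (0.182%, 0.136 to 0.239), giving a ratio of 1.91 (1.18 to 3.16). Its rate intervals overlapped slightly. PGK1 had the lowest rate without ABA, 4 of 14161 reads (0.0282%, 0.00770 to 0.0723), and 15 of 16305 with ABA (0.0920%, 0.0515 to 0.152), giving a ratio of 3.26 (1.04 to 13.5). PGAM1, the least read, had 2 of 3919 reads (0.0510%) and 4 of 5297 (0.0755%), and its ratio of 1.48 (0.212 to 16.4) sets no direction at this depth.

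The lactate dehydrogenase subunits had ratios of different size. LDHB had 10 of 20872 reads without ABA (0.0479%, 0.0230 to 0.0881) and 34 of 23355 with ABA (0.146%, 0.101 to 0.203), giving a ratio of 3.04 (1.47 to 6.90). LDHA had 16 of 17917 reads (0.0893%, 0.0511 to 0.145) and 24 of 19687 (0.122%, 0.0781 to 0.181), giving a ratio of 1.37 (0.696 to 2.75). The difference between these ratios was not tested, and their intervals overlap. Across the 8 genes the rate intervals without ABA all overlapped. With ABA they did not: those of ALDOA and PKM lay above those of PGK1, PGAM1, LDHA and LDHB. These genes were singled out after their values were seen. Each of the 8 ratio intervals held the pooled ratio of 2.43.

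**Figure D1:**
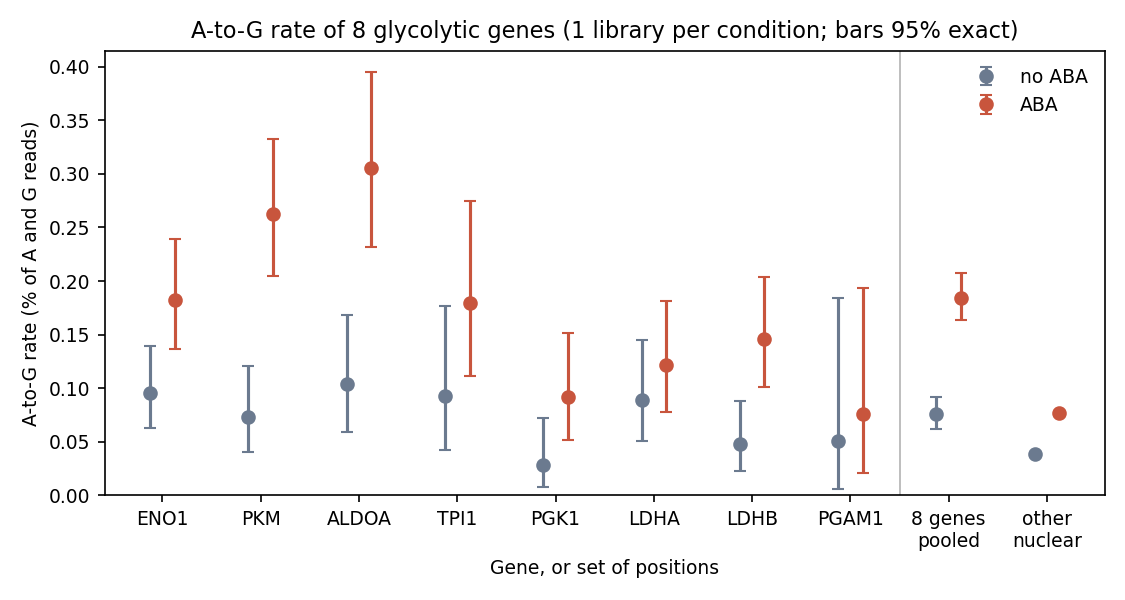
A-to-G rate (percent of A and G reads) of each gene, of the 8 genes pooled and of all other nuclear positions, without ABA (grey) and with ABA (red). Points are rates of 1 library each and bars are exact 95% intervals. The rate with ABA is the higher in each of the 8 genes, from 0.0755% in PGAM1 to 0.305% in ALDOA.

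Mismatches of other kinds were rarer at the same positions. A-to-C stood at 13 reads (0.00995%) without ABA and 32 (0.0214%) with ABA, giving a ratio of 2.15 (1.10 to 4.47). A-to-T stood at 12 and 6 reads, giving a ratio of 0.437 (0.135 to 1.26). At other nuclear positions the ratio was 1.16 (1.12 to 1.21) for A-to-C and 1.02 (0.967 to 1.08) for A-to-T. Over the 8 genes both kinds together made 25 and 38 reads, giving a ratio of 1.33 (0.781 to 2.30), against 1.11 (1.07 to 1.14) at other nuclear positions. The A-to-C ratio is thus near that of A-to-G in size, from few reads. In percentage points the A-to-C difference was 0.0115 and the A-to-G difference 0.109. ENO1 held 7 of the 13 and 13 of the 32 A-to-C reads. The part of such error in the A-to-G difference was not tested.

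Other nuclear positions, pooled, had a rate of 0.0385% (0.0380 to 0.0391) without ABA and 0.0773% (0.0765 to 0.0781) with ABA, giving a ratio of 2.01 (1.97 to 2.04). The ratio over the 8 genes was 1.21 times this (0.964 to 1.53, a normal approximation), so a difference was not detectable. Taken gene by gene, this interval held 1 in 7 of 8 genes. The exception was PKM, with 1.80 times the nuclear ratio (1.03 to 3.14). No adjustment for looking at 8 genes is made in these intervals. LDHA had the lowest value, 0.681 times (0.362 to 1.28).

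The rates themselves lay above those of the other nuclear positions in both libraries, and depth moved with this. At other nuclear positions with ABA the rate was 0.0521% at 6 to 9 reads, 0.0611% at 10 to 19, 0.0914% at 20 to 49, 0.189% at 50 to 99 and 0.320% from 100 reads up. When these rates were weighted to the depths of the 8 genes, they gave 0.0832% without ABA and 0.165% with ABA, giving a ratio of 1.98. The 99 G reads of the genes without ABA were 0.909 times the 109 that this weighting gives (0.739 to 1.11), and the 276 with ABA were 1.12 times 247 (0.989 to 1.26). Summed over these ranges of depth, the 8 genes thus differed from the weighted rate by less than their counting error in each library. Within single ranges they did differ, as given below, and in both directions without ABA. Depth inside a range was not matched.

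Single genes differed from the depth-weighted rate. With ABA, ALDOA had 57 G reads against 33.5 (1.70 times, 1.29 to 2.20) and PKM had 69 against 42.6 (1.62 times, 1.26 to 2.05). Without ABA, both were close to it, with 16 against 13.9 in ALDOA and 15 against 15.5 in PKM. LDHB lay below it without ABA, with 10 reads against 20.3 (0.493 times, 0.236 to 0.906), and had 34 against 46.4 with ABA (0.733 times, 0.508 to 1.02). The intervals of the other 5 genes held 1 in both libraries. These intervals are exact for the reads of the gene and take the weighted rate as fixed. They take G reads as independent, and no adjustment is made for the number of genes and libraries looked at.

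**Figure D2:**
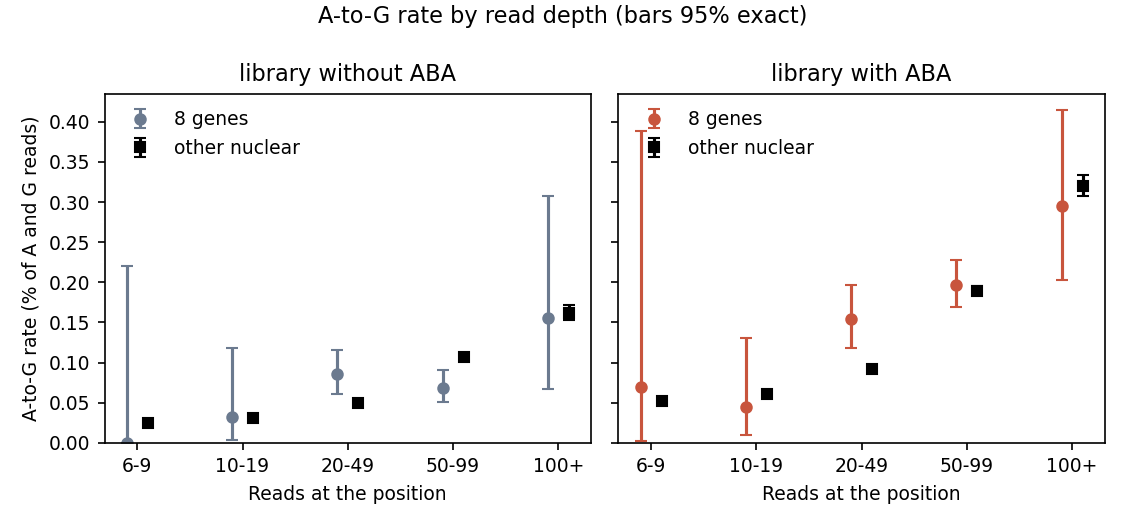
A-to-G rate (percent of A and G reads) by the number of reads at a position, for the 8 genes (circles) and other nuclear positions (black squares), without ABA at left and with ABA at right; bars are exact 95% intervals. The rate climbs with depth outside the 8 genes, from 0.0521% to 0.320% with ABA, and the genes lie above it at 20 to 49 reads. Depth inside each range of reads is not matched.

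In the stratum of 20 to 49 reads the 8 genes had 0.0852% (0.0612 to 0.116) without ABA, against 0.0492% elsewhere, and 0.154% (0.119 to 0.197) with ABA, against 0.0914%. At 50 to 99 reads they had 0.0688% (0.0507 to 0.0912) against 0.107% without ABA, and 0.197% (0.169 to 0.228) against 0.189% with ABA. The genes thus lay above other transcripts in the first of these strata in both libraries, and below them in the second without ABA. Depth inside a stratum was not matched between the genes and other positions. Its part in these differences was not tested.

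G reads were spread over many A positions of each gene. Over the 8 genes, 91 of 3135 positions (2.90%) had a G read without ABA and 209 of 3221 (6.49%) with ABA. Of other nuclear positions, which are less deep, 0.450% and 0.875% had one, so the share was higher with ABA there too. ALDOA had the largest share with ABA, 41 of 298 positions (13.8%), against 15 of 307 (4.89%) without ABA. PGAM1 had the smallest, 4 of 349 (1.15%). Of the positions listed in both libraries, 22 had a G read in both, 69 solely in the no-ABA library and 187 solely in the ABA library. Positions with 1 G read held 85.9% of the G reads without ABA and 65.9% with ABA, against 90.1% and 82.4% at other nuclear positions.

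Positions with several G reads were found mostly with ABA. At least 3 G reads were present at 1 position without ABA and at 15 with ABA, and these 15 lay in 6 of the 8 genes. They held 70 of the 276 G reads with ABA (25.4%) and 12 of those without, and had no C or T read in either library. Their shares with ABA ran from 3.53% to 14.5%, and 14 of 15 were higher than without ABA, a direction their choice favours. PKM had 6 of them, ALDOA 4, ENO1 2, and LDHA, LDHB and TPI1 1 each. At 50 to 99 reads with ABA, 10 of 1281 positions of the genes (0.781%) had at least 3 G reads, against 0.553% of other nuclear positions.

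**Figure D3:**
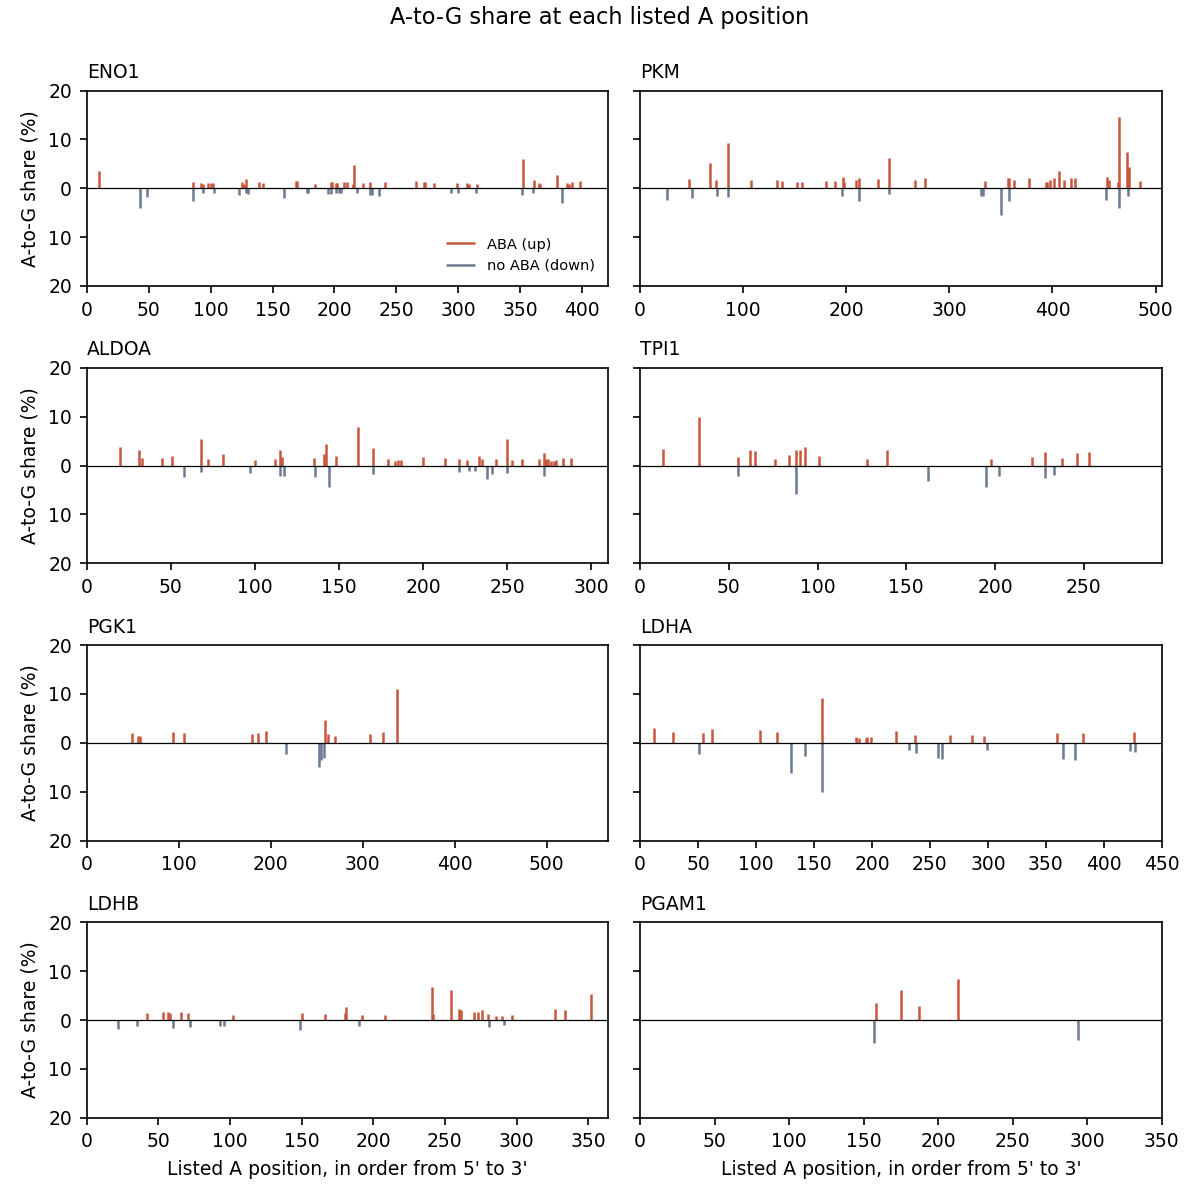
A-to-G share (percent) at each listed A position of each gene, in order from the 5' to the 3' end, with ABA drawn upward (red) and without ABA drawn downward (grey); positions without a G read have no line. PKM shows the tallest line, 14.5% with ABA, near its 3' end, and LDHA a position at 10% and 9.09% in the 2 libraries.

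No single position of the 8 genes passed the test between libraries. Of 2407 positions read 20 or more times in each library, 0 were raised and 0 lowered when an adjusted p under 0.05 and 10 percentage points of change were both required, and the same test raised 0% and lowered 0% of 359185 nuclear positions. At an unadjusted p under 0.05, 2 were higher and 0 lower, against 0.0175% and 0.000557% of nuclear positions. By size alone 2 were higher by 10 points or more and 0 lower by as much, against 0.0237% and 0.00167%. Any higher share was found at 194 positions and any lower share at 76, against 3.3% and 1.87% of nuclear positions, which are less deep. These are two-sided Fisher's exact tests with Benjamini-Hochberg adjustment, and they compare the libraries, not the conditions.

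The largest change in share was in PKM, at position 72491603 of chromosome 15. It had 2 of 49 reads without ABA (4.08%, 0.498 to 14.0) and 10 of 69 with ABA (14.5%, 7.17 to 25), with an unadjusted exact p of 0.119. TPI1 at 6978088 on chromosome 12 had 0 of 24 reads and 3 of 30 (10%, 2.11 to 26.5). Their wide intervals overlap.

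The 2 positions at an unadjusted p under 0.05 had no G read without ABA. ENO1 at 8925502 on chromosome 1 had 0 of 108 reads without ABA (0 to 3.36%) and 5 of 107 with ABA (4.67%, 1.53 to 10.6). Fisher's exact p was 0.0291 and the adjusted p was 1. LDHB at 21790043 on chromosome 12 had 0 of 77 reads without ABA (0 to 4.68%) and 5 of 73 with ABA (6.85%, 2.26 to 15.3). Fisher's exact p was 0.0254 and the adjusted p was 1. ALDOA at 30081316 on chromosome 16 had 1 of 64 reads and 5 of 91 with ABA (5.49%, 1.81 to 12.4).

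LDHA held the sole position with at least 3 G reads without ABA. At 18424487 on chromosome 11 it had 4 of 40 reads without ABA (10%, 2.79 to 23.7) and 4 of 44 with ABA (9.09%, 2.53 to 21.7). The shares lay close together, though intervals this wide do not show them to be equal. PGK1 at 77380405 on chromosome X had 0 of 35 and 2 of 42 reads, and PGAM1 at 99192512 on chromosome 10 had 0 of 7 and 1 of 12. The largest fall among positions read 20 or more times in each library was 5 points, in PGK1 at 77380392. It went from 1 of 20 reads to 0 of 27.

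Reads were then pooled over blocks, which join positions at most 100 nt apart. Of 63 blocks of the 8 genes that had 200 or more reads in each library, 40 had a higher rate with ABA, 13 a lower one and 10 had no G read in either. Among 45236 nuclear blocks, with a median of 532 reads without ABA against 1507 in those of the genes, 27.9% were higher and 13.5% lower. ALDOA was higher in 7 of 7 blocks, while LDHA was higher in 4 and lower in 3. At an adjusted exact p under 0.05, 0 blocks of the genes were higher and 0 lower, against 0.0133% and 0% of nuclear blocks. At an unadjusted exact p under 0.05, 5 blocks were higher and 0 lower, against 0.639% and 0.0243%.

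The lowest p among them was at the 3' end of PKM. Its last block, chromosome 15 from 72491381 to 72492095, had 5 of 5787 reads in the no-ABA library (0.0864%) and 36 of 8041 in the ABA library (0.448%, 0.314 to 0.619), giving a ratio of 5.18 (2.03 to 16.9). The adjusted p was 0.205 from Fisher's exact test, and 0.0379 when blocks with at least 1000 reads alone were tested. With the position of most G reads left out of every block, its adjusted p in Fisher's exact test was 1. This block held 30.6% of the PKM reads with ABA and 52.2% of its G reads. Among its positions were 72491603, with 10 G reads with ABA, 72491545, with 4 of 54 reads, and 72491533 and 72491525, with 3 of 71 and 3 of 70. The other PKM positions with several G reads were 72499526, with 1 of 85 reads in the no-ABA library and 7 of 112 in the ABA library (6.25%), and 72502752, with 1 of 53 and 6 of 65 (9.23%). One read can cover several of these neighbouring positions, so their counts are not independent.

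The other 4 blocks at an unadjusted exact p under 0.05 lay in LDHB, ENO1 and ALDOA. The 3'-most block of LDHB, chromosome 12 from 21788281 to 21788640, had 2 of 5250 reads and 14 of 6181 (0.227%, 0.124 to 0.380; exact p = 0.00967). A second LDHB block, from 21790006 to 21790131, had 0 of 2783 reads and 6 of 2958 (exact p = 0.0316). The lower limit of its ratio was 1.11, and 5 of its 6 G reads lay at 21790043. The 3'-most block of ENO1, chromosome 1 from 8921064 to 8921488, had 3 of 5412 reads and 13 of 5366 (0.242%, 0.129 to 0.414; exact p = 0.0123). That of ALDOA, chromosome 16 from 30081153 to 30081729, had 8 of 5451 reads and 23 of 6594 (0.349%, 0.221 to 0.523; exact p = 0.0306). Each had an adjusted p of 1.

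In the other 4 genes the 3'-most block, also that with the most reads in its gene, was not past this limit. Its rate was lower with ABA in LDHA and TPI1, and higher in PGK1 and PGAM1 from few reads. That of LDHA, from 18428671 to 18429381, had 7 of 7676 reads and 6 of 8319. That of TPI1, from 6979437 to 6980090, had 6 of 4496 and 6 of 5512. In PGK1 the block from 77381289 to 77382234 had 0 of 4450 and 2 of 4047, and in PGAM1 that from 99192121 to 99193169 had 2 of 2870 and 4 of 3666.

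Along the transcripts, listed positions of each gene were ordered from 5' to 3' and split into 5 parts of equal number. With ABA the last part had the highest rate over the 8 genes, 0.274% (0.212 to 0.348), against 0.155%, 0.157%, 0.196% and 0.153% in the 4 parts before it. Without ABA the last part had 0.0709%, between the lowest, 0.0604%, and the highest, 0.0889%. Its ratio was 3.87 (2.19 to 7.29), against 2.18 (1.68 to 2.84) in the first 4 parts. The quotient of these, 1.78 (0.962 to 3.29, a normal approximation), holds 1, so a difference was not detectable. In PKM alone the last part had 0.105% without ABA and 0.547% (0.364 to 0.790) with ABA. Without PKM the rate of the last part with ABA was 0.202% (0.144 to 0.276). The last part was the highest with ABA in 3 of 8 genes.

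The base that follows an A went with the size of the difference. The files list A positions alone, so that a neighbour is read as A where it is listed too, and positions read 20 or more times in each library were used. Where the next base on the 3' side was not A, 1739 positions, the no-ABA library had 0.0723% (0.0555 to 0.0925) and the ABA library 0.229% (0.200 to 0.260), giving a ratio of 3.16 (2.38 to 4.25). Where it was A, 668 positions, the rate was 0.0996% (0.0690 to 0.139) and 0.109% (0.0789 to 0.148), giving a ratio of 1.10 (0.683 to 1.78). The quotient of the ratios was 2.88 (1.69 to 4.90, a normal approximation), and it ran from 2.60 to 3.72 with each gene left out in turn. It was 2.71 (1.52 to 4.85) without the 15 positions with at least 3 G reads, of which 13 had no A after them.

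This pattern was found in most of the genes. With ABA the rate was higher without an A on the 3' side in 7 of 8 genes, and without ABA in 2 of 8, PKM and PGK1. Some of these rest on few G reads. In PGAM1 with ABA there were 2 without a following A against 0 with one, and in PGK1 without ABA 3 against 1. In PKM, positions without a following A had 11 G reads (0.0722%) without ABA and 64 (0.333%) with ABA, and those with a following A had 3 and 5. In ALDOA these counts were 11 and 51 (0.0943% and 0.361%) against 5 and 6, and in ENO1 they were 17 and 43 against 10 and 9. In LDHB they were 4 and 25 against 6 and 8. LDHA was the exception, with 10 and 13 G reads (0.0846% and 0.101%) where no A followed and 5 and 11 (0.0926% and 0.188%) where one did. At other nuclear positions the quotient was 1.54 (1.44 to 1.64), and that of the 8 genes was 1.87 times as large (1.10 to 3.20, a normal approximation). The libraries without ABA and with ABA entered this unequally. Within the ABA library the rate with a following A over that without one was close in both sets, 0.479 (0.336 to 0.667) in the genes and 0.505 (0.485 to 0.526) at other nuclear positions, whose rates were 0.0743% and 0.147%. Within the no-ABA library it was 1.38 (0.880 to 2.12) in the genes, an interval that holds 1, and 0.776 (0.738 to 0.815) elsewhere, from rates of 0.0559% and 0.0721%. The larger quotient of the genes thus lay in the no-ABA library, where 34 and 63 G reads of the genes set it. A-to-C reads where no A followed numbered 9 without ABA and 24 with ABA, and where one did, 3 and 6.

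The base before an A went with a smaller contrast. With an A on the 5' side the rate was 0.0740% without ABA and 0.247% (0.200 to 0.303) with ABA, and without one it was 0.0822% and 0.176% (0.151 to 0.204). Within the library with ABA the former was 1.41 times the latter (1.08 to 1.82), and within that without ABA 0.900 times (0.547 to 1.44). The quotient of the ABA ratios, 1.56 (0.930 to 2.63, a normal approximation), holds 1. The highest rate with ABA was found with an A on the 5' side and none on the 3' side, 85 of 29555 reads (0.288%, 0.230 to 0.356), against 19 of 26100 (0.0728%) without ABA.

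**Figure D4:**
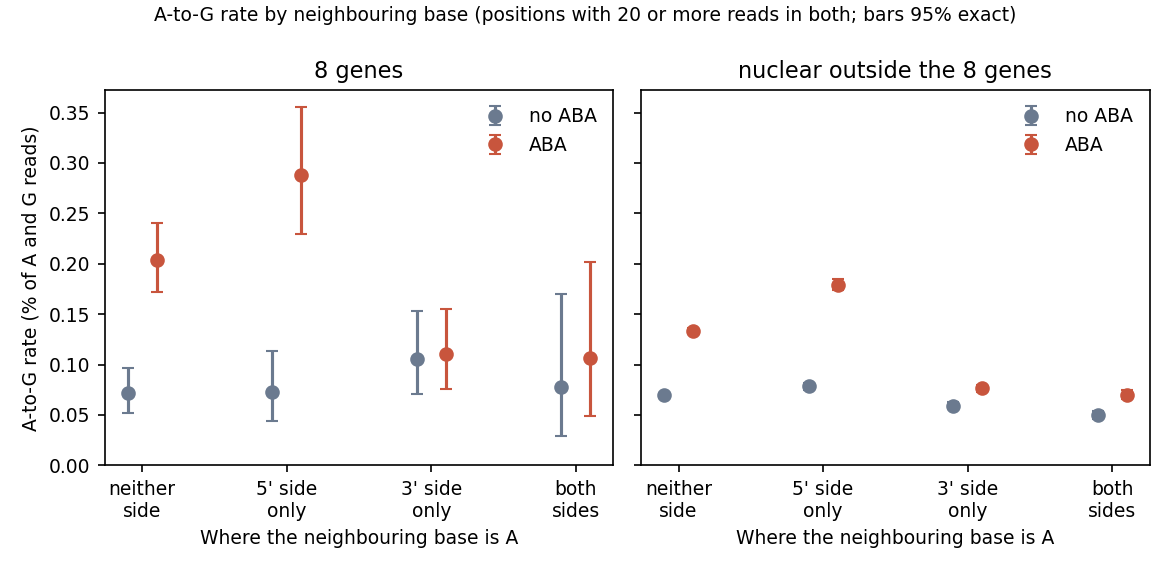
A-to-G rate (percent of A and G reads) by whether the neighbouring base is A, at positions read 20 or more times in each library, for the 8 genes at left and other nuclear positions at right, without ABA (grey) and with ABA (red); bars are exact 95% intervals. In the genes the libraries lie apart where no A follows on the 3' side and together, at 0.106% and 0.110%, where an A follows and none precedes.

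Transcript reads of the genes were more numerous with ABA. At positions that both libraries list, and per 1000000 nuclear base reads at such positions, the 8 genes had 3174 without ABA and 3714 with ABA, giving a ratio of 1.17 (1.16 to 1.18), and 8 of 8 genes were higher with intervals above 1. Among 2459 other nuclear segments of 3000 or more reads, the level was higher in 52.7% and its interval lay above 1 in 41.1%. Those intervals take base reads as independent, though 1 read is counted at each A position it covers, so they are narrower than the true counting error. They are also small beside the spread of the segments, whose middle 50% ran from 0.923 to 1.10. In bulk RNA, the number of cells and the RNA per cell cannot be told apart.

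PKM had the largest ratio of level, 1.31 (1.29 to 1.33), with 500.1 and 655 base reads per 1000000, and PGAM1 followed with 1.29 (1.24 to 1.34). ALDOA had 373 and 465, giving a ratio of 1.25 (1.22 to 1.27), TPI1 had 1.21 (1.18 to 1.24) and PGK1 1.18 (1.16 to 1.21). LDHB had 508 and 583, giving a ratio of 1.15 (1.13 to 1.17), and LDHA 1.13 (1.10 to 1.15). ENO1 had 687 and 709, giving a ratio of 1.03 (1.02 to 1.05), inside the middle range of the segments. Over all listed positions the ratios were larger, 1.14 for ENO1, 1.44 for PKM and 1.53 for PGAM1, where positions that pass the cutoff in 1 library alone count too. As a level per A position, mean depth with ABA was 70.6 reads in ENO1, 64.8 in LDHB, 63.0 in ALDOA, 52.6 in PKM, 44.4 in LDHA, 42.4 in TPI1, 30.5 in PGK1 and 16.1 in PGAM1. With each position thinned to the lower of its depths in both libraries, the A-to-G ratio of the 8 genes was 2.37 (1.86 to 3.04), against 2.43 with all reads.

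**Figure D5:**
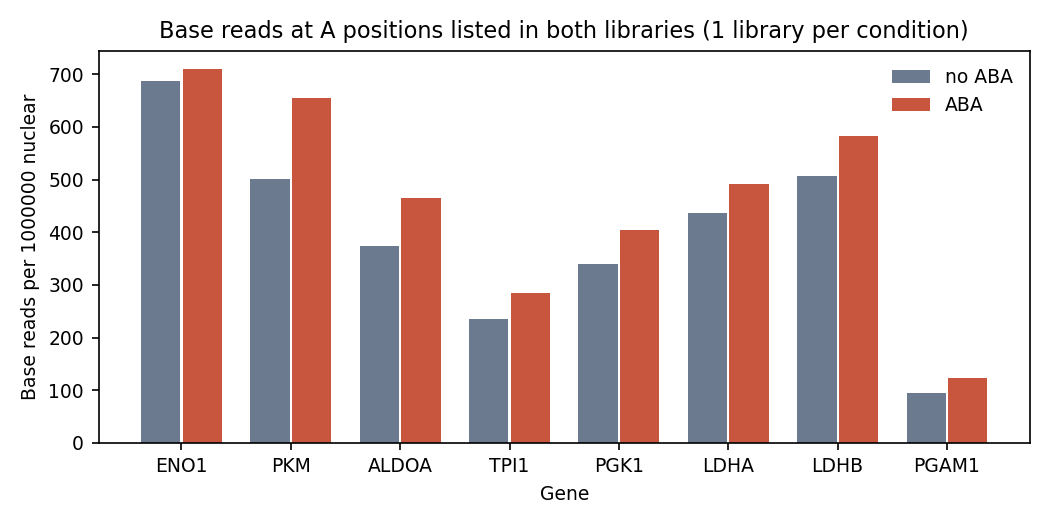
Base reads at A positions listed in both libraries, per 1000000 nuclear base reads at such positions, for each gene without ABA (grey) and with ABA (red), 1 library each. The bar with ABA is the taller in each gene, from 687 to 709 in ENO1 and from 500.1 to 655 in PKM.

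The opposite strand of the same intervals carried few reads. It held 1613 reads at 176 positions without ABA and 977 at 129 positions with ABA, 1.22% and 0.648% of the reads of both strands. ENO1 held 711 and 267 of these reads and ALDOA 363 and 330, while TPI1 held 25 and 49 and PGK1 and PGAM1 had none listed. One G read was found there, in ENO1 without ABA, and with ABA there were 0 of 977 reads, which allows a rate of up to 0.307%. This depth cannot show a rate like that of the transcribed strand.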

How the data were processed

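Per the file headers, the authors deposited, for each library and strand, counts of reads with A, C, G and T at listed positions, with a single base read cutoff of 5. The lowest depth in the files is 6 reads. The submitters' processing notes name cutadapt, HISAT2 and hg19, with no versions. The counting program and the treatment of duplicates are not given in the sources used here. Libraries were made from enriched mRNA with a KAPA mRNA HyperPrep kit, per the labels' protocols. Minus-strand T-to-C counts were read as A-to-G.

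Members, lists and rules were chosen with earlier results of these data known. Intervals of shares are Clopper-Pearson, those of ratios exact conditional binomial, and those of quotients of ratios normal approximations, all at 95%. Where a count of 0 is said to allow a rate or share, the limit is 3 reads, less than the upper end of the exact interval. The site test, over all nuclear positions read 20 or more times in each library, and the block test were two-sided Fisher's exact tests with Benjamini-Hochberg adjustment (threshold 0.05). Both were run on simulated data with independent reads and with changes larger than those measured in these genes. How well they find changes of the measured sizes was not tested. Positions named were, in each gene, that with the most G reads with ABA, those at an unadjusted p under 0.05, and the largest rise and fall. Those chosen by p, rise or fall were read 20 or more times in each library. Blocks named were those at an unadjusted p under 0.05 and that with the most reads with ABA in each gene, as which the planned deepest block was read. Positions with at least 3 G reads, the segments and the leaving out of genes from the quotient were chosen after values were seen. The planned genes HK1, HK2, GPI, PFKL, PFKM, PFKP, ALDOC, ENO2 and BPGM were not analysed here, as no hg19 gene positions were at hand, and for the same reason cell markers were not checked. Alternatives changed the coverage minimum, variant-like positions, the most edited position, depth, the denominator, the gap and the genes. Analyses ran in Python 3.11.15 (scipy 1.17.1, pandas 2.3.3, numpy 2.4.6), and figures in matplotlib 3.10.9. The seed for thinning was 1.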

Additional observations from a re-analysis of the deposited data

How the results depend on the processing

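The pooled A-to-G ratio of 2.43 kept its direction under 17 alternatives, from 2.20 without PKM to 2.88 at positions read 50 or more times in each library, and its interval lay above 1 in each that has one. The quotient by following base ran from 2.60 to 3.72 under 10 alternatives, and the ratio of the last of 5 parts from 2.99, without the 15 positions with at least 3 G reads, to 5.01, without LDHA, under 9. Of single genes, PGAM1 turned to 0.771 (0.0559 to 10.6) where 20 or more reads were asked in each library, and with at least 50 LDHA moved to 4.57 (0.974 to 42.9) and TPI1 to 4.60 (0.515 to 218). The interval of PGK1 held 1 under 3 of its 6 alternatives, the lowest ratio being 2.82 without its position of most G reads. With at least 50 reads PGAM1 had no position left and PGK1 no G read. Positions called numbered 0 under the coverage minimums of 10 and 50, a change of 5 points and the unadjusted p with 10 points, and 2 by size alone. Blocks called numbered 1 of 45, the last of PKM, where 1000 or more reads were asked in each library, against 12 of 8353 nuclear blocks. Under the other 3 alternatives 0 blocks of the genes were called. Without the position with the most G reads of each block, the lowest adjusted p of Fisher's exact test in these genes was 1. All 8 levels were higher with ABA under both other scalings. No paired analysis was possible because each condition has 1 library. No replicate could be left out for the same reason. Depth limits single positions most: a position with 20 reads and no G allows a share of up to 15%.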
